A study of Mus musculus with 62 samples.

Results

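The distribution of short RNA along the B2 element was compared between mouse hippocampus and HT-22 cells, a mouse hippocampal cell line. The short-RNA libraries of the 8 WT hippocampi were set against the 4 HT-22 libraries that had received a reverse peptide and a scramble LNA, which makes 12 of the 62 libraries of the series. The libraries were taken by their labels and not by a measured value. Each count was divided by the total B2 count of its library, and the shares were compared at single positions and in windows of 10 positions.

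Each hippocampal library came from 1 mouse with both hippocampi pooled, and each mouse gave 1 library of short and 1 of long RNA. The WT mice were C57BL/6J and untreated as far as the labels go, 2 of them 3 months old, 3 of them 6 months old and 3 of them 12 months old. HT-22 cells of passage 4 were held for 24 h with a scramble locked nucleic acid (LNA) oligonucleotide, which the labels put at 50 uM, before 30 uM of a peptide with the amyloid beta sequence in reverse order, 42-1, was added. The cells are 1 line in culture, and the labels do not say whether the 4 libraries came from separate cultures, so the p-values may in part measure technical spread. Tissue, culture, peptide and LNA all separate the groups and cannot be told apart. A second pair of groups, which shares no library with the first, was 9 hippocampi of APP NL-G-F mice, which carry a humanised and mutated App allele, with 3 at each age, and 4 HT-22 libraries given 30 uM amyloid beta 1-42 and the scramble LNA.

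B2 is a family of short interspersed repeats of rodents that derives from a transfer RNA and is transcribed by RNA polymerase III from a promoter inside the element. Full-length B2 RNA can bind RNA polymerase II and hold back transcription of stress genes. The RNA is cut within its sequence under stress, and contact with Ezh2, the methyltransferase of Polycomb repressive complex 2, speeds up that cutting. Positions here are numbered along B2 from its start, from 2 to 120, and are not genome coordinates. The sources used here do not say whether a count marks the start, the end or the cover of a fragment, so the shares are described as counts at a position and not as cleavage.

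B2 counts were low and differed between the groups. WT libraries held 491 to 1199 counts in all (median 1062), and HT-22 libraries 1550 to 4246 (median 2168.5). A count of 0 at a position therefore allowed a share of up to 0.250% to 0.611% in a WT library and of up to 0.0707% to 0.194% in an HT-22 library. These floors and the intervals below cover counting error only. Libraries of 1 group differed from each other by more than sampling noise in all 13 pairs compared (chi-square tests of the counts over the 12 windows), so none was counted as a duplicate. One WT library stood apart. WT 6-month replicate 3 held 94 counts at position 10 and 179 at position 16, which made 7.97% and 15.2% of its B2 total, whereas the other 7 WT libraries held 0.0910% to 1.43% at position 10 and 0.390% to 1.83% at position 16. Test results that rest on it are given with and without it, and the mean profiles include it.

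The 2 profiles had the same internal peaks but differed at the start of B2 and near position 100. In hippocampus the 5 positions with the highest mean share were 100, 101, 16, 31 and 2, and in HT-22 cells they were 2, 6, 3, 7 and 32. Of the 10 highest positions in each group, 5 were shared, namely 2, 31, 32, 33 and 34. Over the 119 positions the mean profiles correlated with r = 0.563, and with r = 0.743 when positions 2 to 7 were left out. These correlations are across positions of the same libraries and are given as a description. The ranks, the shared positions and the correlations were not recomputed without WT 6-month replicate 3.

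**Figure D1:**
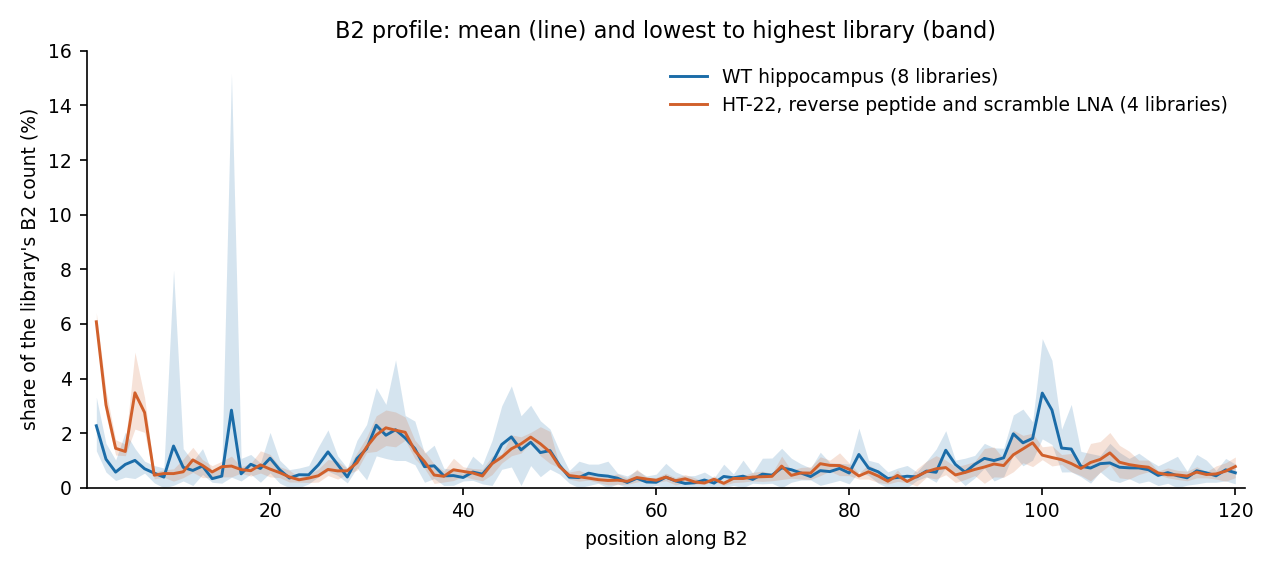
Share of the library's B2 count in percent (y axis) at each position of B2 (x axis) in 8 WT hippocampal libraries and 4 HT-22 libraries; lines are means and bands run from the lowest to the highest library. HT-22 lies above hippocampus from position 2 to 7, hippocampus lies above HT-22 at positions 100 and 101, and the spike at position 16 comes from a single WT library at 15.2%.

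Single positions were tested with edgeR's quasi-likelihood test, each library being scaled by its B2 total, with Benjamini-Hochberg adjustment over the positions tested. With a mean count of at least 10 required, 59 of 119 positions were tested and 9 of them passed an adjusted p of 0.05, which is 15.3%. In hippocampus 5 positions were lower (8.47% of those tested) and 4 were higher (6.78%). Of all 119 positions, 8 had library shares that did not overlap between the groups (6.72%), and all 8 were among the 9 called. A further 3 positions had an unadjusted p under 0.05 only, so that 12 did in all.

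The positions lower in hippocampus were 2, 3, 4, 6 and 7, next to the start of the element. Position 2 was the highest position of the HT-22 profile. Its share was 6.41%, 5.87%, 5.98% and 6.05% in the 4 HT-22 libraries and ran from 1.36% to 3.32%, with a median of 2.27%, in the 8 WT libraries. Every WT library lay below every HT-22 library, and the smallest gap, from 3.32% to 5.87%, was wider than the range within HT-22. The mean share was 2.27% ± 0.645 (SD, n = 8) in hippocampus and 6.08% ± 0.234 (SD, n = 4) in HT-22, a log2 ratio of -1.42 ± 0.23 (SE; edgeR, adjusted p = 6.3e-08).

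Position 3 held 3.17%, 2.65%, 2.78% and 3.56% of the B2 count in HT-22 and 0.577% to 1.63% (median 1.01%) in hippocampus. The log2 ratio was -1.54 ± 0.33 (SE; edgeR, adjusted p = 3.4e-05). Position 4 was a smaller part of both profiles, at 1.201% to 1.76% in HT-22 and 0.269% to 1.02% in hippocampus, with a log2 ratio of -1.40 ± 0.39 (SE; edgeR, adjusted p = 0.0031). Neither position overlapped between the groups. The WT counts were few: position 4 held 3 to 6 counts in each WT library and 23 to 51 in each HT-22 library.

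Positions 6 and 7 formed a second maximum in HT-22 and were lower in hippocampus. Position 6 held 2.15%, 4.97%, 3.90% and 2.90% in HT-22 and 0.339% to 1.44% (median 1.08%) in hippocampus, with a log2 ratio of -1.81 ± 0.32 (SE; edgeR, adjusted p = 7.7e-07). Position 7 held 2.03%, 3.29%, 3.31% and 2.40% in HT-22 and 0.538% to 0.976% (median 0.668%) in hippocampus. Its log2 ratio of -1.95 ± 0.35 (SE; edgeR, adjusted p = 7.7e-07) was the most negative of the positions tested. HT-22 replicate 2 was the highest library at position 6 and HT-22 replicate 1 the lowest at both positions, and the groups did not overlap at either. At positions 3, 4, 6 and 7 the WT libraries held 9.75, 4.88, 8.88 and 6.63 counts on average, so these positions passed the limit of 10 through the counts of HT-22, the group in which they were high. With no limit on low counts 8 positions were called: all 4 of these stayed called (edgeR, adjusted p of 9.2e-07 to 0.0032), as did position 2, and position 26 was lost.

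Position 5, between these maxima, overlapped. It held 1.177% to 1.60% in HT-22 and 0.390% to 2.04% in hippocampus, with a log2 ratio of -0.73 ± 0.36 (SE; edgeR, adjusted p = 0.20). Summed over positions 2 to 7, a block picked after its values were seen and therefore given without a test, the share was 16.3%, 19.5%, 19.3% and 17.4% in the HT-22 libraries. In hippocampus the same block ran from 4.33% to 8.96% with a median of 6.63%. At position 8 the mean share was 0.537% ± 0.235 (SD, n = 8) in hippocampus and 0.463% ± 0.130 (SD, n = 4) in HT-22, and at position 9 it was 0.393% ± 0.244 (SD, n = 8) and 0.523% ± 0.147 (SD, n = 4). Both positions had too few counts for the edgeR test.

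The positions higher in hippocampus were 26, 81, 100 and 101. Position 100 was the highest of the mean hippocampal profile and the highest single position in 3 of the 8 WT libraries. Its share was 4.09% and 1.79% in the WT mice of 3 months, 2.24%, 3.32% and 4.07% at 6 months, and 5.46%, 2.17% and 4.59% at 12 months. In HT-22 it was 1.502%, 1.03%, 1.12% and 1.13%. The lowest WT library lay above the highest HT-22 library, and the 12-month group held both a high and a low library. The mean share was 3.47% ± 1.31 (SD, n = 8) against 1.196% ± 0.208 (SD, n = 4), a log2 ratio of 1.54 ± 0.30 (SE; edgeR, adjusted p = 6.3e-06).

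The neighbouring position 101 followed the same order. It held 1.59% to 4.67% (median 2.62%) in hippocampus and 1.54%, 1.03%, 1.07% and 0.801% in HT-22, with a log2 ratio of 1.38 ± 0.34 (SE; edgeR, adjusted p = 0.00053). The gap between the lowest WT and the highest HT-22 library was small, from 1.54% to 1.59%. Because shares of a library add up to a whole, the positions above 20 were also tested against their own total. Positions 100 and 101 were then the 2 called, with log2 ratios of 1.39 and 1.22 (edgeR, adjusted p = 0.0019 and 0.0064). An exact permutation test of the shares, chosen after seeing the data, called positions 2, 3, 4, 6 and 7 (adjusted p = 0.024 each) and not positions 100 and 101 (adjusted p = 0.085 and 0.079).

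Position 81 held 0.594% to 2.18% (median 1.05%) in hippocampus and 0.487%, 0.387%, 0.320% and 0.542% in HT-22. The groups did not overlap, and the log2 ratio was 1.43 ± 0.41 (SE; edgeR, adjusted p = 0.0042). Against the total of the positions above 20 its adjusted p was 0.056, and by the exact permutation test it was 0.19. Position 26 held 0.611% to 2.12% in hippocampus and 0.452% to 1.04% in HT-22, so the groups overlapped. Its log2 ratio was 0.96 ± 0.36 (SE; edgeR, adjusted p = 0.0499), and the call was lost when any of 8 of the 12 libraries was left out (largest adjusted p = 0.17).

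Between these regions the profiles ran close together. The first internal peak, at positions 31 to 34, had mean shares of 1.83% to 2.29% in hippocampus and 1.93% to 2.20% in HT-22. At position 31 the log2 ratio was 0.22 ± 0.32 (SE; edgeR, adjusted p = 0.77), with 1.17% to 3.67% in hippocampus and 1.33% to 2.64% in HT-22. The second internal peak, around positions 45 to 47, was also in both groups. The 59 positions tested had a median log2 ratio of -0.03.

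**Figure D2:**
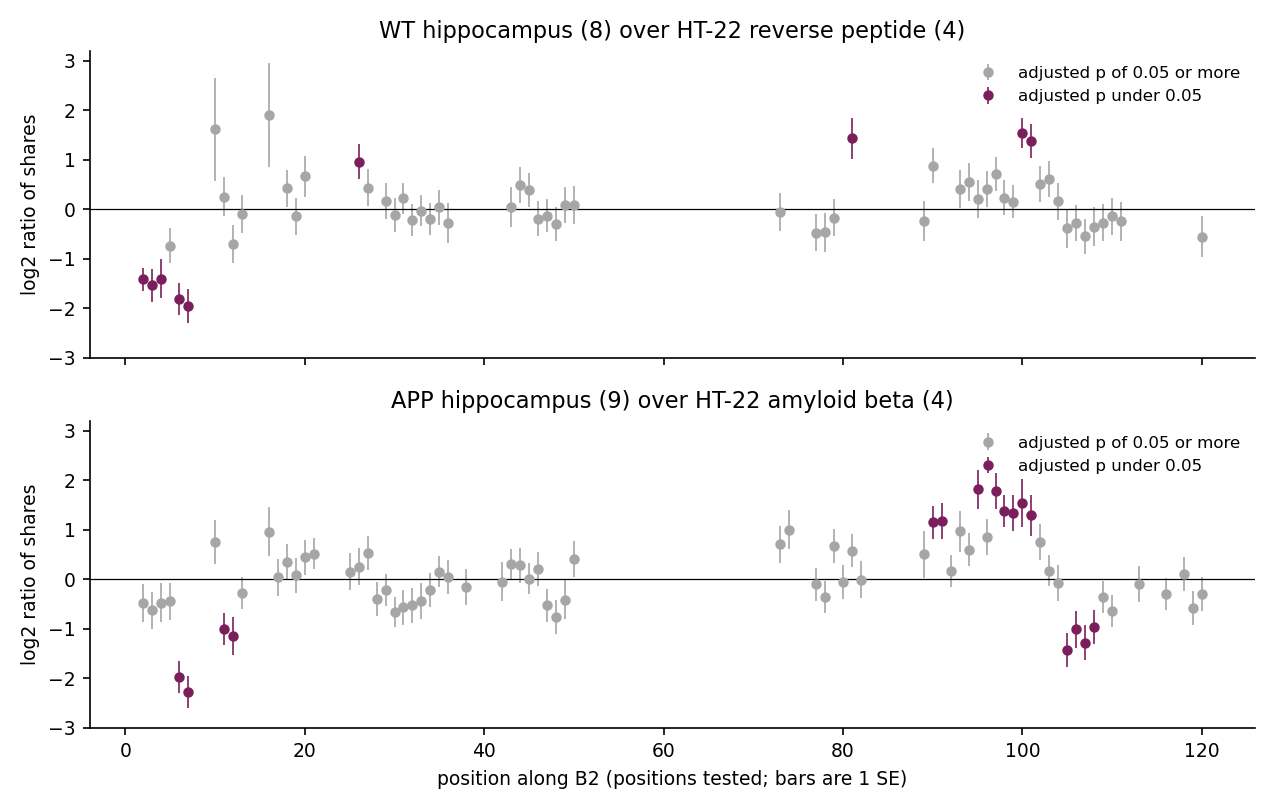
Log2 ratio of hippocampal over HT-22 share (y axis) at the B2 positions tested (x axis), with bars of 1 SE, for the WT comparison (8 against 4 libraries, top) and the APP comparison (9 against 4, bottom). Purple points passed an adjusted p of 0.05: 9 of 59 positions in the top panel and 16 of 73 in the bottom panel, with 6, 7, 100 and 101 called in both.

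In windows of 10 positions, the first window was lower in hippocampus. The window from position 2 to 10 held 17.5%, 21.0%, 21.0% and 19.0% of the B2 count in the HT-22 libraries. In the WT libraries it held 5.64% and 8.25% at 3 months, 11.2%, 7.36% and 13.3% at 6 months, and 7.71%, 8.70% and 9.17% at 12 months. The groups did not overlap, and the highest WT value belonged to 6-month replicate 3, the library with the counts at position 10. The mean was 8.92% ± 2.38 (SD, n = 8) in hippocampus and 19.6% ± 1.73 (SD, n = 4) in HT-22, a difference of -10.7 percentage points (two-sided exact permutation test, p = 0.00202, adjusted over the 12 windows p = 0.024).

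That was the 1 window called of 12, which is 8.33%. Without WT 6-month replicate 3 the difference was -11.3 points, and it stayed called when any WT library was left out. Leaving out any of the HT-22 replicates 1, 2, 3 or 4 gave an adjusted p of 0.0727, the smallest that 8 against 3 libraries can give a single window among 12, with differences from -11.4 to -10.3 points.

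The window from 91 to 100 was the largest of the hippocampal profile. It held 9.96% to 17.4% (median 14.96%) in the WT libraries and 11.4%, 8.65%, 12.2% and 6.29% in HT-22, so the groups overlapped. The means were 14.4% ± 2.61 (SD, n = 8) and 9.64% ± 2.70 (SD, n = 4), a difference of 4.73 points (exact permutation test, p = 0.018, adjusted p = 0.11). Without WT 3-month replicate 2, the lowest WT library in this window, the adjusted p was 0.036 with a difference of 5.36 points (exact permutation test). With each of the 12 libraries left out in turn, the difference ran from 3.61 to 5.57 points and the adjusted p up to 0.29 (exact permutation tests). All 12 libraries tested with edgeR on the window counts gave an adjusted p of 0.047.

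The window from 21 to 30 held 6.01% to 9.71% in hippocampus and 6.09% to 6.86% in HT-22. Its difference of 1.502 points had an unadjusted p of 0.040 and an adjusted p of 0.16 (exact permutation test). The other 9 windows differed by -0.58 to 1.80 points and had adjusted p-values of 0.25 to 0.94 (exact permutation tests). The windows from 31 to 40 and from 41 to 50, which hold the internal peaks, differed by -0.29 and 0.39 points. In the window from 11 to 20 WT 6-month replicate 3 reached 19.3%, and the other 7 WT libraries held 5.37% to 10.0%.

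**Figure D3:**
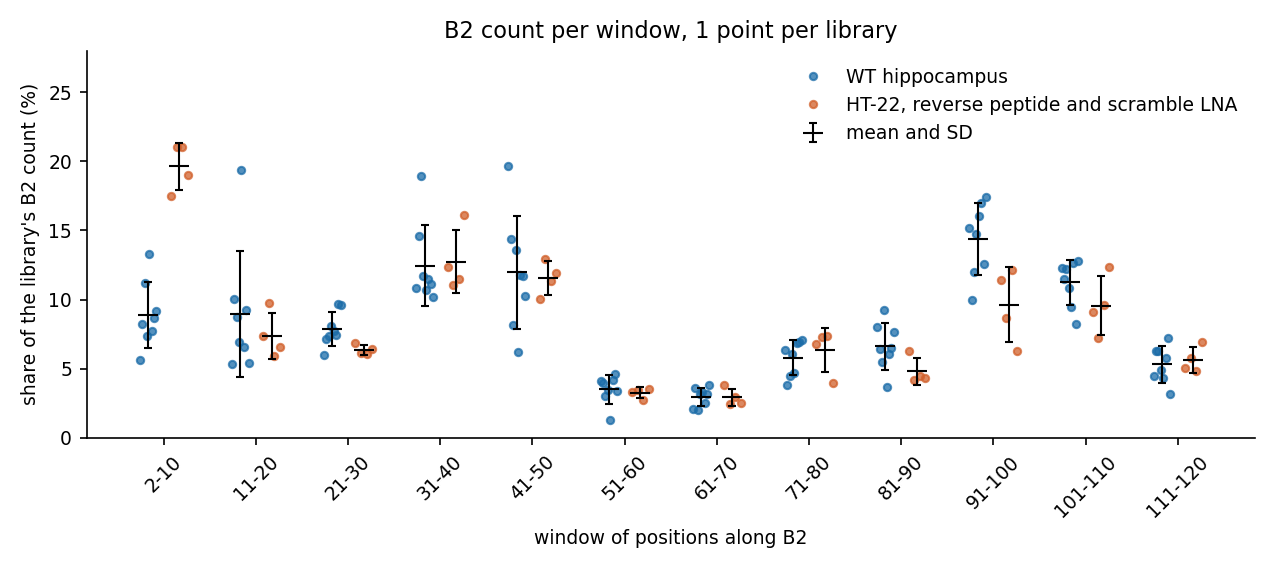
Share of the library's B2 count in percent (y axis) in 12 windows of B2 positions (x axis), with 1 point per library and the mean and SD in black, for 8 WT hippocampal and 4 HT-22 libraries. The groups are apart only from 2 to 10, where HT-22 libraries hold 17.5% to 21.0% and WT libraries 5.64% to 13.3%; the window from 91 to 100 overlaps.

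The share of the B2 count at positions above 20, called the internal share here, was higher in hippocampus. The rest of the count lies in the windows from 2 to 10 and from 11 to 20. The internal share is thus fixed by those windows and is no separate result. It ran from 67.3% to 89.0% (median 83.7%) in the WT libraries and was 75.2%, 69.2%, 73.0% and 74.4% in HT-22. The groups overlapped through 1 library: WT 6-month replicate 3 at 67.3% (95% Wilson interval 64.6% to 70.0%) lay below all HT-22 libraries, and the other 7 WT libraries, from 80.0% up, lay above all of them. The means were 82.1% ± 6.62 (SD, n = 8) and 73.0% ± 2.64 (SD, n = 4), a difference of 9.16 points (two-sided exact permutation test, p = 0.0343). Without that library the difference was 11.3 points (exact p = 0.0030). The call was lost when any of 8 other libraries was left out (exact p up to 0.0727), namely WT 3-month replicates 1 and 2, WT 6-month replicate 2, WT 12-month replicates 1, 2 and 3, and HT-22 replicates 2 and 3.

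The WT libraries varied among themselves, and the ranges of distances within and between the groups overlapped. The distance between 2 libraries was the share, in percentage points, that must move between the 12 windows to make them equal. It ran from 6.82 to 25.4 (median 14.0) within WT and from 6.65 to 12.4 (median 11.01) within HT-22. Between the groups it ran from 11.5 to 25.2 (median 17.5). Without WT 6-month replicate 3 the within-WT distances ran up to 20.2 (median 11.7). WT libraries had lower B2 totals, which makes their shares less precise, and the part of depth in this spread was not tested.

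No difference with age was detectable among the WT profiles at this number of mice. No window was called of 12 in an exact permutation test over the 3 ages, the smallest unadjusted p was 0.075 and the smallest adjusted p 0.364, and 0 windows had an unadjusted p under 0.05. In the window from 2 to 10 the means were 6.95% at 3 months (n = 2), 10.6% at 6 months (n = 3) and 8.53% at 12 months (n = 3). All 3 means lay below the lowest HT-22 library. The 2 WT mice of 3 months had Xist at 102 and 110 TPM (length-scaled transcript abundance, summing to a fixed total in each library). Those of 6 and 12 months had Ddx3y at 19.3 to 23.4 TPM. Age and sex therefore cannot be told apart between the WT mice of 3 months and the older ones.

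The comparison was repeated in libraries that share no sample with it. In APP hippocampus against HT-22 cells given amyloid beta 1-42, 16 of 73 positions were called (21.9%), 8 higher and 8 lower in hippocampus. The count fell to 10 without HT-22 amyloid beta replicate 2 and to 10 without replicate 4. Positions 6, 7, 100 and 101 were called in both comparisons, which is 44.4% of the WT calls and 25% of the APP calls. All 9 positions called in the WT comparison had the same sign in the APP comparison, as did 47 of the 58 positions tested in both.

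Positions 6 and 7 were lower in APP hippocampus too, as were positions 11 and 12. At position 11 the log2 ratio was -1.01 (edgeR, adjusted p = 0.020) without overlap. At position 12 it was -1.15 (edgeR, adjusted p = 0.033) with overlap, and the call was lost when any of 5 of the 13 libraries was left out. In the WT comparison positions 11 and 12 were not called, with log2 ratios of 0.25 and -0.71. Position 6 held 0.639% to 1.79% (median 0.974%) in the 9 APP libraries and 4.43%, 3.95%, 4.62% and 3.54% in the HT-22 libraries, with a log2 ratio of -1.97 ± 0.32 (SE; edgeR, adjusted p = 8.6e-06). Position 7 held 4.46%, 2.57%, 3.14% and 2.92% in HT-22 and at most 1.23% in the APP libraries, of which 1, APP 12-month replicate 3, had 0 counts there of its total of 432, which allows a share of up to 0.694%. Its log2 ratio was -2.27 ± 0.32 (SE; edgeR, adjusted p = 1.1e-06). Neither position 6 nor position 7 overlapped between the groups. The APP libraries held 0 to 16, 1 to 13 and 0 to 23 counts at positions 7, 11 and 12. The HT-22 libraries held 80 to 178, 27 to 48 and 28 to 67 there. These 3 positions passed the limit of 10 through the counts of HT-22, the group in which they were high.

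Position 2 was not called there. Its share was 2.08%, 3.40%, 3.23% and 3.14% in HT-22 cells given amyloid beta and 0.457% to 4.86% (median 1.95%) in APP hippocampus, with a log2 ratio of -0.48 ± 0.38 (SE; edgeR, adjusted p = 0.43). The HT-22 libraries of this comparison lay below those given the reverse peptide at this position, and the APP libraries covered a wider range than the WT libraries. Positions 3, 4, 26 and 81 were not called either, with log2 ratios of -0.63, -0.47, 0.25 and 0.58. The difference between the 2 comparisons was tested as an interaction, chosen after seeing the data: edgeR called 0 of 68 positions (smallest adjusted p = 0.196, with 6 at an unadjusted p under 0.05) and 0 of 12 windows (smallest adjusted p = 0.137, with 4 at an unadjusted p under 0.05).

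Near position 100 more positions were called in the APP comparison than in the WT comparison. The interaction test called 0 of 68 positions, so a difference in extent was not shown. In the window from 91 to 100 the mean share was 16.05% in APP and 14.4% in WT hippocampus. The HT-22 means there were 6.69% with amyloid beta and 9.64% with reverse peptide, both with scramble LNA. Positions 97, 98 and 99 were higher in APP hippocampus without overlap, with log2 ratios of 1.78, 1.38 and 1.34. Positions 90, 91 and 95 were also called higher but overlapped, with log2 ratios of 1.15, 1.17 and 1.82. At position 97 the share was 0.897% to 3.91% in APP hippocampus and 0.376%, 0.550%, 0.551% and 0.803% in HT-22. Position 100 was called with a log2 ratio of 1.53 ± 0.49 (SE; edgeR, adjusted p = 0.020), but the groups overlapped, with 0.463% to 8.29% (median 1.89%) in APP hippocampus and 0.693% to 1.53% in HT-22. Position 101 was called with a log2 ratio of 1.29 ± 0.41 (SE; edgeR, adjusted p = 0.020) and also overlapped, with 1.26% to 7.10% against 0.949% to 1.68%. The exact permutation test gave unadjusted p-values of 0.12 and 0.060 for positions 100 and 101. Each lost its call when any of 4 of the 13 libraries was left out (largest adjusted p 0.076 and 0.082): HT-22 amyloid beta replicates 2 and 4 and APP 6-month replicate 1 for both, with replicate 3 of those HT-22 libraries for position 100 and replicate 1 for position 101. Just beyond, position 105 was lower in APP hippocampus without overlap, at 0.183% to 1.08% against 1.44% to 2.28% (log2 ratio -1.44 ± 0.34, SE; edgeR, adjusted p = 0.0017). It held 1 to 16 counts in the APP libraries and 48 to 95 in HT-22, so it too passed the limit of 10 through HT-22. The mean share at position 105 was 0.632% in APP and 0.725% in WT hippocampus. In HT-22 it was 1.76% with amyloid beta and 0.927% with reverse peptide. Positions 106, 107 and 108 were called lower too but overlapped, with log2 ratios of -1.01, -1.28 and -0.97. Position 106 lost its call when any of 9 of the 13 libraries was left out, and position 108 when any of 4 was. In the WT comparison none of positions 90, 95, 97, 98, 99, 105, 106, 107 and 108 was called, and position 91 was not tested.

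In windows, 3 of 12 were called in the APP comparison (25%). The window from 2 to 10 held 7.996% ± 2.19 (SD, n = 9) in APP hippocampus and 15.9% ± 1.11 (SD, n = 4) in HT-22, and the window from 91 to 100 held 16.05% ± 4.82 (SD, n = 9) and 6.69% ± 0.501 (SD, n = 4). Neither window overlapped between the groups. The third was the window from 61 to 70, at 3.26% ± 0.376 (SD, n = 9) and 2.16% ± 0.755 (SD, n = 4), which overlapped. Each had an adjusted p of 0.017 (two-sided exact permutation test), and no window was called without HT-22 amyloid beta replicate 3 or without replicate 4. With 1 library left out, the largest adjusted p was 0.0545 for each of the 3 windows (exact permutation tests). That is the smallest that 9 against 3 libraries can give a single window among 12. The internal share was 84.6% ± 2.96 (SD, n = 9) and 76.5% ± 1.48 (SD, n = 4), a difference of 8.10 points (exact permutation test, p = 0.0014).

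Across all 31 short-RNA libraries, the first window separated hippocampus from the cell line. It held 4.14% to 13.3% in the 17 libraries of hippocampus and 15.1% to 27.9% in the 14 of HT-22. Within HT-22 it was 15.1% to 17.5% with amyloid beta and scramble LNA, 17.5% to 21.0% with reverse peptide and scramble LNA, 20.1% to 23.2% with amyloid beta and anti-Hsf1 LNA, and 21.5% to 27.9% with reverse peptide and anti-Hsf1 LNA. These groups are given side by side without a test. The lowest HT-22 library at 15.1% lay above the highest hippocampal library at 13.3%. The window from 91 to 100 held 9.96% to 23.3% in hippocampus and 6.16% to 12.2% in HT-22 and overlapped.

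**Figure D4:**
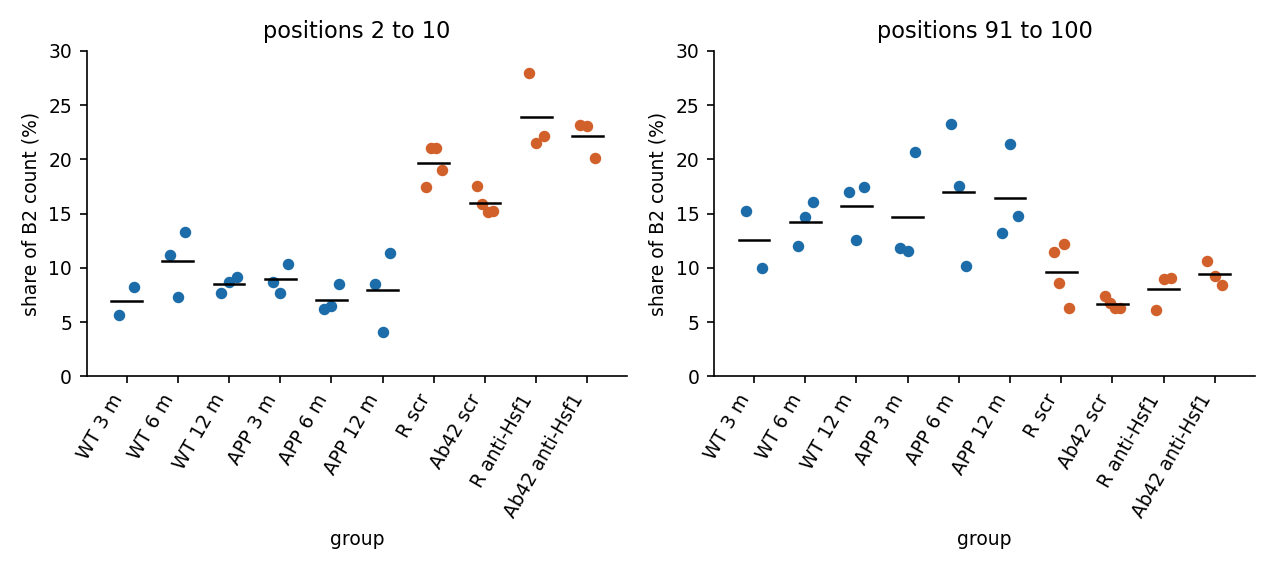
Share of the library's B2 count in percent (y axis) at positions 2 to 10 (left) and 91 to 100 (right) in the 10 groups of short-RNA libraries (x axis; m, months; R, reverse peptide; Ab42, amyloid beta 1-42; scr, scramble LNA), with 1 point per library and a line at the mean. On the left every hippocampal library (blue) lies below every HT-22 library (orange), with 13.3% the highest and 15.1% the lowest; on the right the ranges overlap.

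The long-RNA libraries of the same mice and of cells under the same treatment were read for cell type, for the genes of Polycomb repressive complex 2 and Hsf1, and for genes of the RNA polymerase III machinery. Neuronal markers were at or near 0 TPM in HT-22: 5 of 8, among them Snap25 and Rbfox3, were listed at 0 in all 4 libraries, and Tubb3 alone exceeded 1 TPM, at 2.102 to 7.16. The 8 markers summed to 1533 to 3285 TPM in hippocampus and to 2.86 to 7.91 TPM in HT-22. Astrocyte, oligodendrocyte, microglial, endothelial and choroid plexus markers were also lower in HT-22, all 19 of 19 by limma. Their sums ran to 50.8, 2.07, 0.421, 0.741 and 0.350 TPM there, with the glutamate transporter gene Slc1a3, at 15.1 to 50.5 TPM, as the largest part. In hippocampus the same sums were 724 to 1289, 519 to 1373, 55.7 to 88.2, 4.45 to 9.72 and 355 to 1580 TPM. The 4 markers of cycling cells summed to 623 to 707 TPM in HT-22 and to 0.753 to 3.69 TPM in hippocampus. The labels call HT-22 a hippocampal cell line, and the defining neuronal markers were at or near 0 in it. Hippocampal tissue is a mixture of cell types, in which fewer cells of a type and less RNA per cell cannot be told apart. The part of cell type and of cell division in the B2 profiles was not tested.

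Ezh2, Eed and Suz12, the core of Polycomb repressive complex 2, and Hsf1, the main transcription factor of the heat shock response, were all lower in hippocampus. Over all genes, limma on log2(TPM + 1) called 16074 of 19245 (83.5%), with 57.4% lower and 26.1% higher in hippocampus and a median log2 ratio of -0.77. Scaling by median of ratios left 76.5% called, 32.9% lower and 43.6% higher, with a median of 0.15, so each gene is given on both scales. The call of a single gene stands against these shares.

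Ezh2 (ENSMUSG00000029687, GRCm38 chromosome 6, 47530139 to 47595341) was at 99.9, 117, 106 and 96.3 TPM in HT-22 and at 4.68 to 12.7 TPM (median 6.44) in hippocampus. No WT library came near the HT-22 range. The log2 ratio was -3.77 ± 0.19 (SE; limma, adjusted p = 1.9e-12), and -2.70 after scaling. Eed, which binds the methylated histone and holds the complex together, was at 15.3 ± 2.94 (SD, n = 8) and 88.4 ± 5.10 TPM (SD, n = 4), with log2 ratios of -2.48 and, scaled, -1.39. Suz12, the scaffold subunit, was at 14.5 ± 2.41 (SD, n = 8) and 96.0 ± 28.7 TPM (SD, n = 4), with HT-22 replicate 4 the lowest at 55.0 TPM, and log2 ratios of -2.61 and, scaled, -1.52. Hsf1 was at 7.63 to 18.1 TPM in hippocampus and 54.0, 42.9, 70.6 and 58.9 TPM in HT-22, with log2 ratios of -2.21 ± 0.23 (SE; limma, adjusted p = 4.1e-08) and, scaled, -1.14. All 4 were called on both scales, and none overlapped between the groups.

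**Figure D5:**
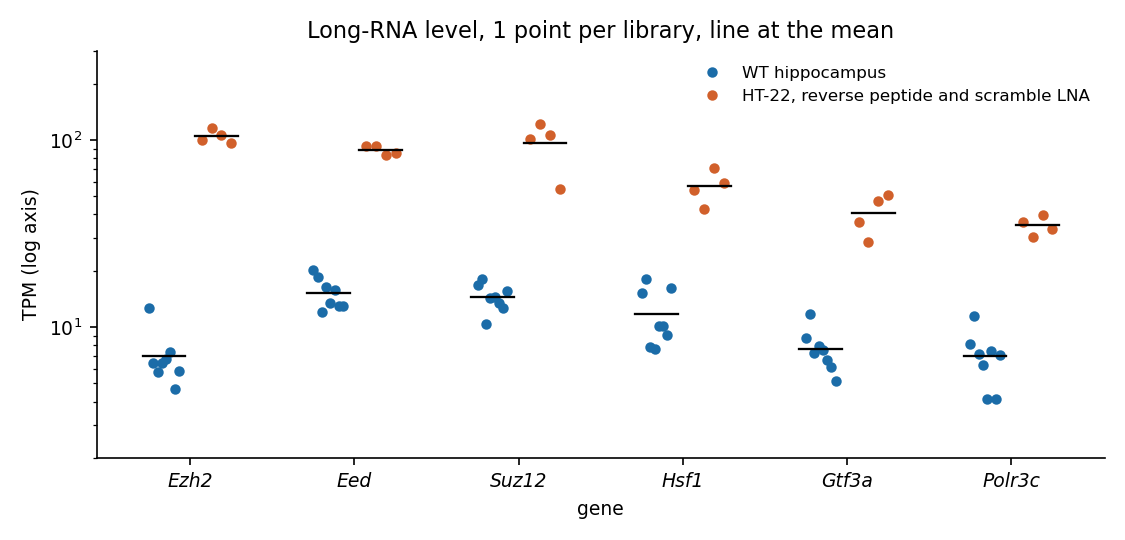
Long-RNA level in TPM (y axis, log scale) of Ezh2, Eed, Suz12, Hsf1, Gtf3a and Polr3c (x axis) in 8 WT hippocampal and 4 HT-22 libraries, with 1 point per library and a line at the mean. The groups do not overlap for any of the 6 genes; Ezh2 is at 4.68 to 12.7 TPM in hippocampus and 96.3 to 117 TPM in HT-22.

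The RNA polymerase III machinery depended on the scale. The list held the polymerase subunits, the factors TFIIIA, TFIIIB and TFIIIC, the repressor Maf1 and the La protein gene Ssb. All 22 listed genes were lower in hippocampus on the TPM scale, where 57.4% of all genes tested were called lower. Their median log2 ratio was -1.26 against -0.77 over all genes tested. After median of ratios scaling 6 of the 22 were higher and 7 were lower, against 43.6% higher and 32.9% lower of all genes tested. The median was then -0.19 against 0.15. The largest of those higher after scaling were Gtf3c3, at 0.62, and Polr3e, at 0.49 (limma, adjusted p = 1.9e-05 and 0.013). On the TPM scale their log2 ratios were -0.43 and -0.50. The largest called changes were those of Gtf3a, the gene of TFIIIA and so of a factor needed for the ribosomal RNA genes that polymerase III transcribes, at a log2 ratio of -2.27 (scaled -1.21), and of Polr3c, a subunit of the polymerase, at -2.22 (scaled -1.175). Gtf3a was at 5.13 to 11.8 TPM in hippocampus and 28.6 to 51.0 TPM in HT-22, and Polr3c at 4.13 to 11.4 and 30.2 to 39.9 TPM, with no overlap for either. Maf1, which represses the polymerase, had log2 ratios of -1.40 and, scaled, -0.31, and Ssb, whose protein binds the 3' ends of polymerase III transcripts, -1.28 and, scaled, -0.18, the last without a call (limma, adjusted p = 0.19).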

How the data were processed

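The members (the comparison with its libraries), the gene lists and the tests were chosen with earlier results of these data known. Within the comparison, libraries were taken by their labels. B2 counts were deposited by the authors as 1 whole number per position in each library, not scaled. The deposited gene tables give TPM, FPKM and a coverage signal, per the file headers. TPM was used for tests, and the ratio of deposited coverage to FPKM gave relative depth (1.42 to 2.66 in WT and 0.810 to 2.60 in HT-22 libraries). The submitters' processing notes name FastQC, cutadapt 1.18, BWA 0.7.17, HISAT2 2.1.0, bedtools 2.26.0 and StringTie 1.3.4d, with builds mm10 and GRCm38 and no roles. The sources used here do not give the B2 reference, and no B2 sequence was used. Per the labels' protocols, short RNA was size-selected and very small fragments were removed, which limits which B2 fragments can be counted. The B2 total is not the sequencing depth.

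Positions were tested with edgeR 4.0.16 (R 4.3.3; glmQLFit and glmQLFTest, robust; library size the B2 total; mean count of at least 10; Benjamini-Hochberg). Window and internal shares were tested by two-sided exact permutation over libraries (Python 3.11.15). Genes were tested with limma 3.58.1 (trend, robust) on log2(TPM + 1), which understates changes of low genes, at a mean TPM of at least 1. An adjusted p under 0.05 was called. Scripts were tested on simulated data. Alternatives were DESeq2 1.42.0, TMM factors, other filters, windows and limits, left-out libraries and a replicate block.

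Named were the 10 highest positions per group, called positions without overlap (up to 10 per direction), all windows, and Ezh2, Eed, Suz12 and Hsf1. Of the polymerase III genes, the 2 largest called changes in each direction were named, those higher only after scaling, with Maf1 and Ssb. Positions 5, 8, 9, 10 and 26, those called with overlap in the APP comparison, and the block from 2 to 7 were named after their values were seen. Replicate numbers do not pair mice with cultures. One HT-22 library (reverse peptide, anti-Hsf1, replicate 3) is titled short RNA and described as long RNA, and it was used as short RNA in the values of all 31 libraries only.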

Additional observations from a re-analysis of the deposited data

Results flagged for a closer look

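In groups of 4 to 10 libraries, 13 of 150 values tested (8.67%) had 1 library farther from the others than Dixon's 95% limit allows. Chance gives about 1 in 20 for independent values. The values here are not independent, since windows hold the named positions and shares add up to a whole, so an excess was not tested. WT 6-month replicate 3 was such a library for the internal share (67.3%), for the windows from 11 to 20 (19.3%) and from 51 to 60 (1.27%), and for position 16 (15.2%). WT 3-month replicate 1 was high at position 45 (3.73%) and in Ezh2 (12.7 TPM). Of the HT-22 libraries given the reverse peptide and scramble LNA, replicate 4 was low in the window from 71 to 80 (4.00%) and at position 99 (0.777%), and replicate 1 was high in the window from 81 to 90 (6.29%). In HT-22 cells given amyloid beta and scramble LNA, replicate 4 was high at position 26 (1.35%). Among the APP libraries, 6-month replicate 3 was high at position 3 (1.85%), 12-month replicate 3 at position 91 (2.55%) and 12-month replicate 1 at position 106 (2.92%).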

How the results depend on the processing

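Of 9 positions called in the WT comparison, 2 were called over the positions above 20 and 5 by the exact permutation test per position, and leaving out 1 library gave 8 to 11. With positions 10 and 16 left out, chosen after seeing the data, 10 were called, and without WT 6-month replicate 3, 9. In the APP comparison (16 positions) leaving out 1 library gave 10 to 17. The 1 window called in the WT comparison became 0 with windows of 20, over the positions above 20, and with WT mice of 3, 6 or 12 months alone, where a single window cannot pass with so few arrangements, and 2 with edgeR on window counts. Leaving out 1 library gave 0 to 2. The 3 windows called in the APP comparison became 6 when windows of 10 began at position 2, 1 over the positions above 20 and 5 with edgeR, and leaving out 1 library gave 0 to 4. The internal share difference of 9.16 points was 7.66 for positions above 30 (exact permutation p = 0.0606), 12.4 with WT 3 months alone (exact p = 0.0667, the smallest possible there) and 4.74 with WT 6 months alone (exact p = 0.429), and ran from 7.92 to 11.3 with 1 library left out. Genes called fell from 16074 to 10291 at a mean TPM of at least 5, where fewer were tested. The cause of the other changes was not tested.

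Replicate numbers do not pair the samples: the deviations of same-numbered libraries correlated at -0.19 to 0.24 and those of others at -0.36 to 0.36. With a replicate block, 9 positions, 2 windows and 15762 genes were called in the WT comparison and 12 positions and 4 windows in the APP comparison, and the internal share difference was 9.23 points (exact p = 0.0833).

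No called value changed sign in any alternative run. In 53 cases, 35 of windows and 18 of positions, a value changed sign while called under neither setting, and these were counted as unchanged. Among named positions, windows and genes, 73 alternatives lost a call and 9 gained one. With 491 to 1199 counts per WT library, depth left 60 of 119 positions untested.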
